A study of Mus musculus with 4 samples.

Results

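Purinergic signalling was followed through 7 of the 16342 genes listed in any of 4 count tables, in single cells of mouse corpus callosum sorted as CD11b-positive microglia and macrophages. They were chosen by name: the ADP receptor genes P2ry12 and P2ry13, the UDP receptor gene P2ry6, the ATP-gated channel genes P2rx4 and P2rx7, the surface nucleotidase gene Entpd1 and the adenosine receptor gene Adora3. All 7 passed the filter on low counts that left 11250 genes for testing. Male C57BL/6 mice aged 13 weeks gave every sample. Week 0 (2 libraries) was not treated, and week 5 (2 libraries) had received cuprizone, a copper chelator that kills oligodendrocytes and strips myelin from the corpus callosum. The labels do not give the dose of cuprizone, the number of animals in a library or whether the libraries are separate animals, and p-values therefore speak only of the spread among these libraries, part or all of which may be technical. Live nucleated cells were sorted on CD11b, an integrin of myeloid cells, and sequenced from 3′ ends in droplets, where every captured transcript carries its own molecular identifier (UMI).

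ATP and ADP leak or are released from damaged cells and act on microglia through P2X receptors, which are ion channels opened by ATP, and P2Y receptors, which signal through G proteins. The P2RY12 protein senses ADP and steers the fast extension of microglial processes towards an injury, and its gene is a standard marker of resting microglia. The nucleotidase ENTPD1 removes phosphates from ATP and ADP at the cell surface, which feeds the formation of adenosine, the ligand of ADORA3.

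The 4 tables held 2415001 to 6559032 UMIs over 1000 barcodes each, and 909 to 956 cells per library were used. The median cell used had 1525 and 3934 UMIs in week 0 replicates 1 and 2, and 6114.5 and 2495.5 in week 5 replicates 1 and 2, so that depth differed within both weeks. Pairs of libraries had 6 barcodes in common, and 0 of these had the same counts. The labelled cell type was checked on 11 microglia markers that leave out the 7 genes. All 11 were detected in every library. Their sum was 30002 and 35430 CPM (the usual depth-normalised count) at week 0 against 20384 and 23706 CPM at week 5. The part of this difference in the results was not tested. Marker sums are CPM on the total UMIs of the cells used, while CPM of single genes by library are on the effective library size. That size multiplies the total by 1.09 and 1.07 at week 0 and by 0.840 and 1.02 at week 5. The 12 markers of border-associated macrophages summed to 871 and 292 CPM at week 0 and to 668 and 557 at week 5. Platelets also carry P2ry12 and mast cells Adora3. The platelet markers Ppbp and Gp1ba were at 0 in all 4 libraries and Itga2b in 3 of them, while Gp9 led a microglia-like cluster; the 4 mast cell markers summed to at most 1.10 CPM. The 7 T or NK cell markers were at 0 in both week 0 libraries, and summed to 0.778 and 129 CPM at week 5. Markers of choroid plexus (856 and 4.64 CPM at week 0 against 1998 and 2145 at week 5), of monocytes (67.6 and 19.9 against 153 and 70.9) and of oligodendrocytes (116 and 120 against 203 and 146) were also higher in both week 5 libraries, and their part in the results was not tested.

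P2ry12 and P2ry13 are neighbours on the minus strand of mouse chromosome 3 (GRCm38, GENCODE M21), at 59216272 to 59262871 and 59207892 to 59210882, with 5389 bases between them. Both lie inside Med12l, a much longer gene of the plus strand (59005825 to 59318682), as does P2ry14. P2rx7 (chromosome 5, 122643911 to 122691432) and P2rx4 (122707544 to 122729738) lie on the plus strand with 16111 bases between them. P2ry6 is on chromosome 7 (100937630 to 100974649, minus strand), Entpd1 on chromosome 19 (40612366 to 40741602, plus strand) and Adora3 on chromosome 3 (105870858 to 105908926, plus strand). Tmigd3 covers nearly all of Adora3 on the same strand, so reads may have been split between them and the Adora3 values are uncertain to that extent. Tmigd3 had 3 to 7 UMIs per library. All 7 genes are annotated as protein coding.

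The promoters of P2ry12, P2ry13 and P2rx4 are shown because the first pair had nearly the same difference between the weeks, and P2rx4 the opposite one. Each is the RefSeq window (GRCm38.p6) from 250 bases before to 50 bases after a gene start, read 5′ to 3′ on the gene's strand; the capitals mark the one match found to the motifs named next.
P2ry12 (chr3:59262936-59263235, minus strand): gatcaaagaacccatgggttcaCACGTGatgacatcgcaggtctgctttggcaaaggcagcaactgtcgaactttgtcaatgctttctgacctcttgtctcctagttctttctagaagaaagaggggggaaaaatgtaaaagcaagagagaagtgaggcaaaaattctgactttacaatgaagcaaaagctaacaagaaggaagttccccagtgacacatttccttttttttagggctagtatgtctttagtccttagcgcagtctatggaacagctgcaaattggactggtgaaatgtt
P2ry13 (chr3:59210833-59211132, minus strand): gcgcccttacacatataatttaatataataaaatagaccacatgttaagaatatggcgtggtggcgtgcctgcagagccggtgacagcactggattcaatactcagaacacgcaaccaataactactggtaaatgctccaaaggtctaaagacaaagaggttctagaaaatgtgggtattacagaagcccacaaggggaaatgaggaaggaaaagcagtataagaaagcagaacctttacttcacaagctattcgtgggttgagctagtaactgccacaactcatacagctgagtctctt
P2rx4 (chr5:122707294-122707593, plus strand): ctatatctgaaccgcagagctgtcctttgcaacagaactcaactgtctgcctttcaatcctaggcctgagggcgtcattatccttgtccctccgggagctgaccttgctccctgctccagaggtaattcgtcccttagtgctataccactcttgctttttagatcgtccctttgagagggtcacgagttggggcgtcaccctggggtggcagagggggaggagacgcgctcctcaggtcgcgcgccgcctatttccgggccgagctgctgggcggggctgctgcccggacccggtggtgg

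The motifs searched, on both strands, were GAGGAAGT, a form bound by PU.1 and its relatives, TGANTCA, bound by AP-1, and CACGTG, the E-box. They do not overlap one another in these windows. Of all 32851 promoters of this length in the reference, 3.20% held the first, 7.81% the second and 7.15% the third. Among the 11162 promoters of genes tested here, these shares were 3.38%, 4.90% and 10.3%. P2ry12 had 1 E-box, 228 bases before the start, while the windows of P2ry13 and P2rx4 held none of the 3 motifs. Base composition differed, with 42.3% G or C in both ADP receptor promoters and 60.3% in that of P2rx4. The reference gave windows for 6 of the 7 genes.

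P2ry12 and P2ry13 stood at 0.486 and 0.483 of their untreated mean at week 5, Entpd1 at 0.658 of it and P2rx4 at 1.83 times it, while P2ry6, P2rx7 and Adora3 did not separate the weeks. None of the 7 passed the test over all genes. P2ry12 stood at 3008 and 3541 CPM in week 0 replicates 1 and 2, and at 1517 and 1666 CPM in week 5 replicates 1 and 2. Both week 5 libraries lay below both week 0 libraries, at a mean of 1592 ± 106 against 3275 ± 377 CPM (SD, n = 2 and 2). The log2 fold change was -1.04 with an SE of 0.37, and edgeR's adjusted p was 0.229. P2ry13, whose product also answers ADP through an inhibitory G protein, had 704 and 756 CPM in the untreated libraries and 321 and 385 in the treated ones. Again the groups did not overlap (mean 730 ± 37.2 to 353 ± 45.3 CPM, log2 fold change -1.05, SE 0.28, edgeR adjusted p = 0.101).

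P2ry6 encodes the receptor for UDP, known for its part in microglial phagocytosis. Untreated libraries held 393 and 457 CPM of it and week 5 libraries 366 and 449, so that the groups overlapped (log2 fold change -0.06, SE 0.27, edgeR adjusted p = 0.958). The sign of this small difference turned with each cell thinned to 1000 UMIs (log2 fold change 0.084).

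P2rx4 encodes an ATP-gated channel that sits largely in lysosomes and rises in spinal microglia after nerve injury. Its CPM was 109 and 116 before treatment and 217 and 196.5 after it, and it was the 1 gene of the 7 with both week 5 libraries above both week 0 libraries. The week 5 mean was 207 ± 14.8 CPM against 113 ± 4.74 (SD, n = 2 and 2), with a log2 fold change of 0.87 (SE 0.22; edgeR adjusted p = 0.0813). P2rx7, the channel that opens at high ATP and is linked to release of interleukin-1β, was at 129 and 114 CPM and then at 118 and 120.3 CPM. Its groups overlapped, with a log2 fold change of -0.03 (SE 0.21; edgeR adjusted p = 0.976), and the value was 0.14 with thinned cells. The neighbours on chromosome 5 thus had unlike values.

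Entpd1, the nucleotidase gene, had 554 and 532 CPM untreated and 338 and 376 after cuprizone. The groups did not overlap (mean 543 ± 15.6 to 357 ± 26.8 CPM; log2 fold change -0.60, SE 0.26, edgeR adjusted p = 0.348). Adora3 was at 107 and 132 CPM and then at 88.8 and 109 CPM, which overlap (log2 fold change -0.28, SE 0.22, edgeR adjusted p = 0.688).

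**Figure D1:**
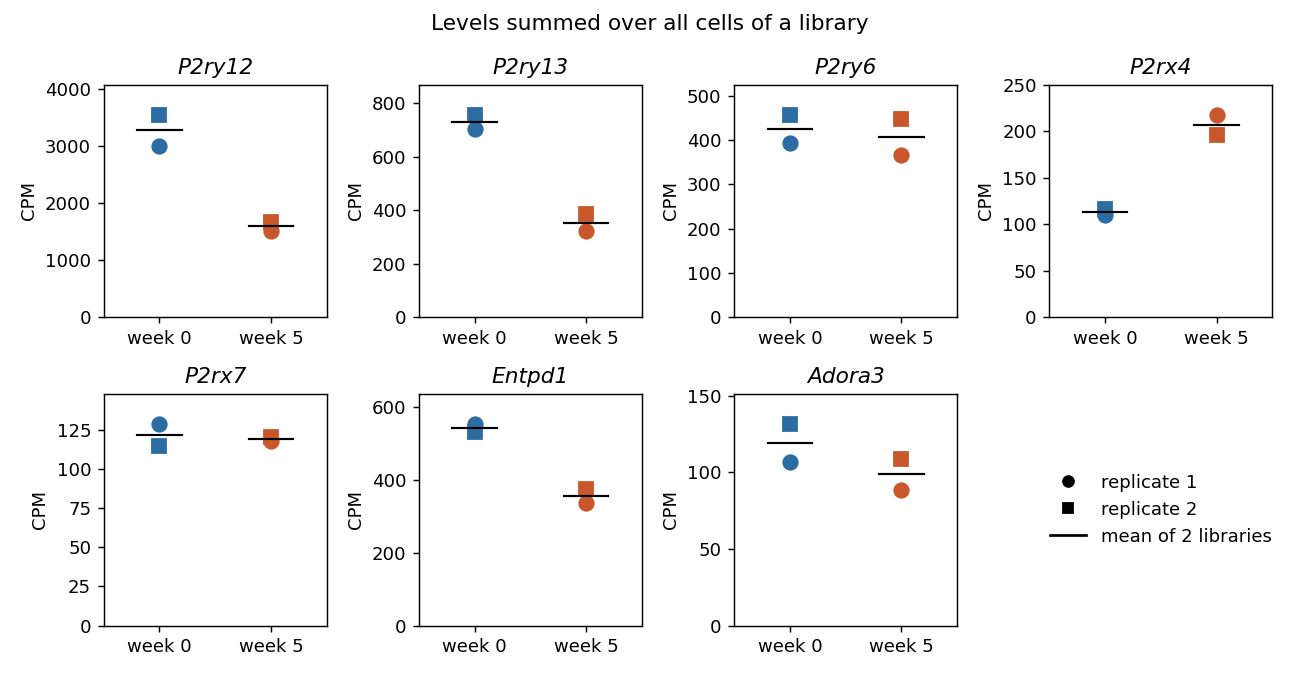
Level of each gene in CPM (y axes, from 0) in the 4 libraries at week 0 and week 5, with circles for replicate 1, squares for replicate 2 and lines for the mean of 2 libraries. P2ry12, P2ry13 and Entpd1 have both week 5 libraries below both week 0 libraries, P2rx4 has them above, and the other genes overlap.

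Over all genes, edgeR's quasi-likelihood test called 285 of 11250, or 2.53% (262 higher at week 5, 2.33%, and 23 lower, 0.204%), against 0 of the 7 genes. Scaled by library size alone, the split was 292 higher and 90 lower, and the median over all genes of the log2 fold change went from -0.01 to -0.24. At an unadjusted p under 0.05, 3 of the 7 were lower (P2ry12, P2ry13 and Entpd1) and 1 was higher (P2rx4), where 4.23% and 9.44% of all genes were. Groups that did not overlap were common, 22.2% of all genes lying lower and 21.1% higher, so the 3 lower genes and the 1 higher gene are to be read against those shares. The median log2 fold change of the 7 was -0.28. By size alone, 1.08% of tested genes had a more negative log2 fold change than P2ry12 and 1.06% a more negative one than P2ry13, while 92.1% lay below P2rx4.

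Calls of these genes changed with the test and the libraries used. DESeq2, which was run on 15959 genes with its own filter in place of edgeR's, passed 3 of the 7, P2ry12 (adjusted p = 0.000233, over a range to 0.806 across the alternatives), P2ry13 (0.000424, to 0.568) and P2rx4 (0.0204, in a range from 0.00148 to 0.500), while limma-voom passed 0 on the 11250 filtered genes. Without that filter edgeR itself passed P2ry13 (0.0312) and P2rx4 (0.0280), so the test and the filter are not separated in the DESeq2 calls. Without week 5 replicate 2, edgeR passed P2ry13 (adjusted p = 0.0155) and P2rx4 (0.00148), and called 1373 genes in place of 285; without week 0 replicate 2 it called 151.

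**Figure D2:**
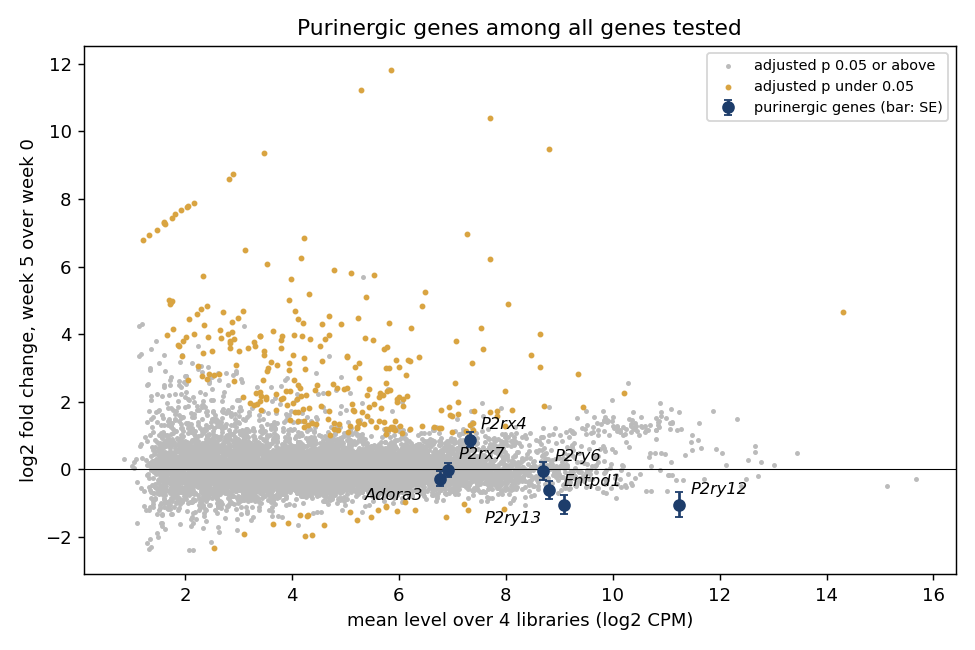
Log2 fold change of week 5 over week 0 (y axis) against the mean level over the 4 libraries in log2 CPM (x axis) for the 11250 genes tested; orange points had an adjusted p under 0.05, and bars on the purinergic genes are SEs. P2ry12 and P2ry13 lie at -1.04 and -1.05 and P2rx4 at 0.87, all among grey points.

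Ratios of UMI counts between these genes within a library do not depend on any scaling between libraries. The size of such a ratio also depends on how each 3′ end is captured, so only its change is read. P2ry12 over P2ry13 was 4.28 and 4.68 at week 0 and 4.73 and 4.33 at week 5, so the ratios of the ADP receptor transcripts overlapped between the weeks. P2ry12 over P2rx4 was 27.5 and 30.5 at week 0 and 6.98 and 8.48 at week 5, a difference of -1.91 on the log2 scale. P2ry13 over P2rx4 went likewise from 6.43 and 6.51 to 1.48 and 1.96. P2ry12 over P2ry6 was 7.65 and 7.75 and then 4.14 and 3.71. P2ry6 over P2rx7 overlapped between the weeks (3.05 and 3.99 against 3.102 and 3.73). P2rx4 over P2rx7, the neighbouring channel genes, went from 0.851 and 1.02 to 1.84 and 1.63. Of 21 pairs, 18 had ratios that did not overlap between the weeks. The share among pairs of all genes tested was not worked out, so this count is not read as a result about the 7 genes. The pairs share genes and libraries, and with 2 libraries against 2 an exact two-sided permutation test cannot give a p below 0.333.

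**Figure D3:**
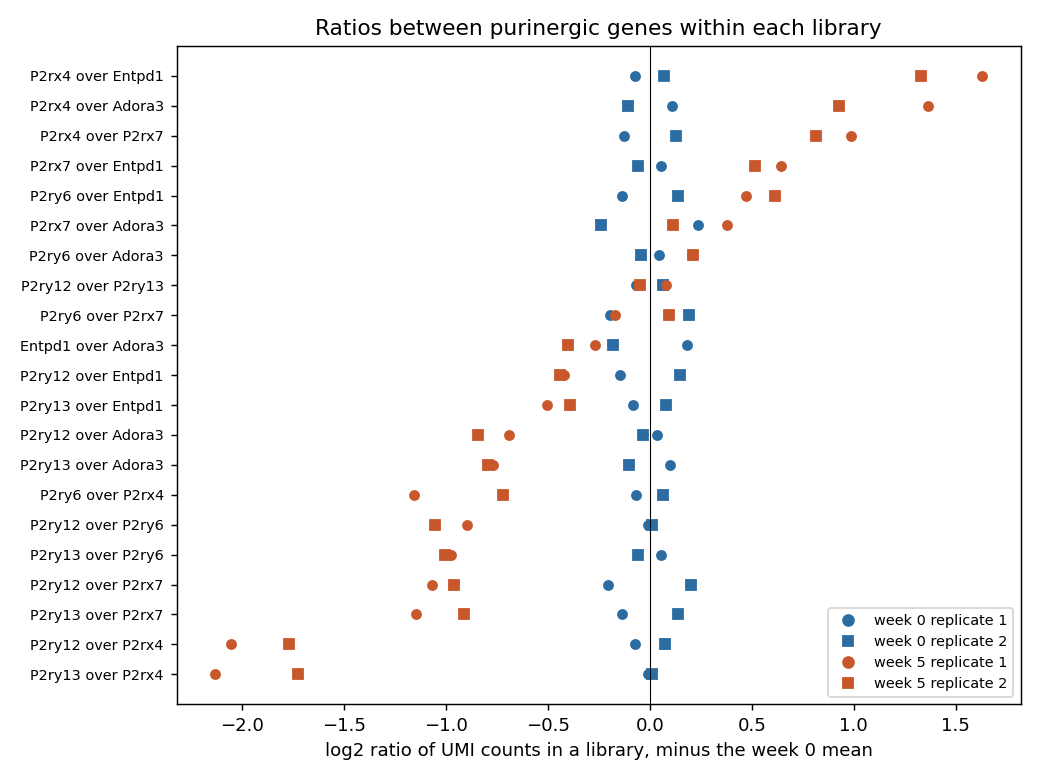
Log2 ratio of UMI counts of 2 genes within each library, minus the mean of the week 0 libraries (x axis), for the 21 pairs of the 7 genes (y axis). Ratios of an ADP receptor gene over P2rx4 are the lowest at week 5, those of P2rx4 over Entpd1 the highest, and P2ry12 over P2ry13 differs by 0.02.

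Shares of cells were compared after each cell was thinned to 1000 UMIs, which left out 145 and 70 shallower cells at week 0 and 61 and 105 at week 5. P2ry12 was found in 677 of 780 cells (86.8%; exact 95% interval 84.2% to 89.1%) and 790 of 839 (94.2%; 92.4% to 95.6%) at week 0. At week 5 it was found in 518 of 895 (57.9%; 54.6% to 61.1%) and 474 of 809 (58.6%; 55.1% to 62.0%). Both week 5 libraries thus lay below both week 0 libraries, with a difference in mean share of -32.2 percentage points. Unthinned shares were 91.1% and 95.9% against 81.0% and 69.6%. P2ry13 had thinned shares of 48.8% and 53.6% at week 0 and of 25.6% and 25.2% at week 5 (unthinned 66.9% and 85.6% against 61.1% and 48.9%). Entpd1 was found in 45.8% and 40.6% of thinned cells and then in 28.6% and 30.5% (unthinned 64.5% and 80.0% against 70.5% and 58.3%, which overlap).

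P2rx4 was found in 11.9% and 13.0% of thinned cells at week 0 and in 18.2% and 17.9% at week 5, and in 23.1% and 40.3% against 53.3% and 41.5% of unthinned cells. P2ry6 (35.9% and 36.0% against 29.9% and 39.6%), P2rx7 (14.5% and 11.7% against 13.4% and 12.7%) and Adora3 (9.36% and 13.5% against 7.60% and 10.3%) overlapped between the weeks. Unthinned, their shares were 55.4% and 78.4% against 75.7% and 68.5%, 26.6% and 37.6% against 45.3% and 31.7%, and 21.7% and 43.8% against 34.4% and 26.4%, in the same order. The exact two-sided permutation test over libraries gave p = 0.333 for the 4 genes whose shares did not overlap, the smallest it allows with n = 2 and 2. How often thinned shares of all genes separate in this way was not worked out, so that count is not read as a result. Free RNA in droplets can add UMIs to any cell. In the 23 week 5 cells of the cluster led by S100a6, Ms4a4b and Ccl5, whose leading genes are not of microglia, thinned shares were 8.70% (2 cells; interval 1.07% to 28.0%) for P2ry12, 4.35% for P2ry6 and Entpd1, and 0 cells for the other 4 genes. Those cells had a median of 6114 UMIs, against 5282 in the microglia-like cells that were thinned at week 5. The 20 choroid plexus-like cells of week 5, with a median of 5299.5 UMIs, had more: 10% of them (2 cells; interval 1.23% to 31.7%) held P2ry12, as many held P2ry13 and P2ry6, and 5% (1 cell) held each of the other 4 genes. All intervals cover counting error only.

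The number of P2ry12 UMIs per thinned cell had a median of 2 and 4 at week 0 and of 1 in both week 5 libraries. Cells with 5 or more made up 21.03% and 36.5% at week 0 and 7.71% and 6.43% at week 5, and cells with none 13.2% and 5.84% against 42.1% and 41.4%. Some week 5 cells thus held as many P2ry12 UMIs as week 0 cells, up to 9 and 14 in a cell against 15 and 11.

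**Figure D4:**
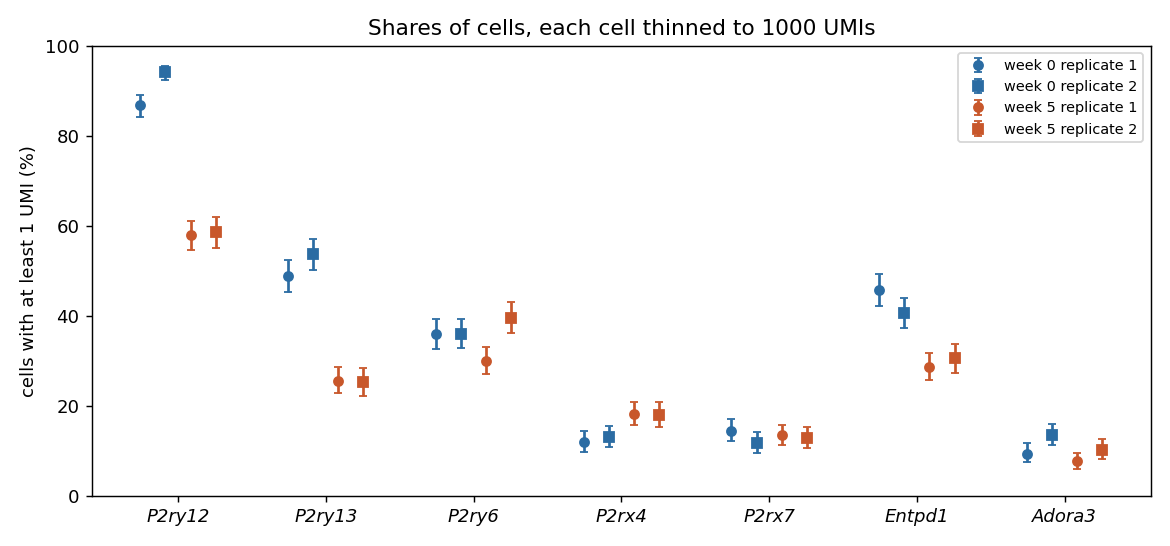
Share of cells with at least 1 UMI of each gene (y axis, percent) in the 4 libraries after thinning to 1000 UMIs per cell; bars are exact 95% binomial intervals. The week 5 shares of P2ry12 are 57.9% and 58.6% against 86.8% and 94.2% at week 0, and those of P2rx4 lie above the week 0 shares.

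To see where in the sample these levels lay, cells were clustered without the 7 genes, into 12 clusters named here by their leading gene. Of these, 8 were microglia-like and 1, led by Mrc1, was border-associated macrophage-like. Levels within clusters are CPM on the total UMIs of the cells concerned, without the effective library size, and they are descriptions with no test. In summed libraries fewer cells with a transcript and less of it per cell cannot be told apart; the clusters show part of this. The most P2ry12 at week 5 was in the cluster led by Gp9 and Ecscr (3820 and 3973 CPM in replicates 1 and 2, from 44 and 19 cells). The one led by Camk2n1 and Slc2a5 followed (3584 and 3003 CPM, from 27 and 105 cells). At week 0 these clusters held 3874 to 4559 CPM (153 and 378 cells) and 3931 to 4374 CPM (46 and 349 cells). Cells of the Gp9-led cluster thus overlapped between the weeks, and those of the Camk2n1-led one did not.

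Next in order at week 5 came the cluster led by Ddit4 and the interferon-responsive gene Rtp4. Its P2ry12 stood at 2169 and 1897 CPM (347 and 242 cells), against 2267 and 2482 at week 0 (19 and 26 cells). The cluster led by the interferon-induced chemokine gene Cxcl10 (1399 and 1502) lay above the Insyn2b-led one (1158 and 1147), and the libraries of the Gm43221-led cluster (1615 and 947) spanned both. The Gm43221-led and Insyn2b-led clusters hold shallow cells, with median depths of 1025 to 1366 UMIs per library. Lowest among microglia-like and macrophage-like clusters were the one led by the chemokine gene Ccl4 (587 and 283 CPM), macrophage-like cells (373 and 171) and the cluster led by Spp1, Apoc4 and Fabp5 (218 and 235). The macrophage-like range overlapped both others, while the Spp1-led cluster lay below the Ccl4-led one. Macrophage-like cells at week 0 held 383 CPM in replicate 1 (16 cells) and 2552 in replicate 2 (5 cells). The Spp1-led cluster, which held 1 cell at week 0 and 183 and 37 at week 5, thus lay within the week 5 range of macrophage-like cells for P2ry12. It also lay within the range of choroid plexus-like cells, which should lack the gene. Those held 347 and 55.8 CPM in the 2 week 5 libraries (15 and 5 cells), and 5947 CPM of microglia markers over all libraries. Other cells not of microglia held less P2ry12 at week 5. S100a6-led cells had 37.6 CPM (counting interval 12.2 to 87.8) and oligodendrocyte-like cells 80.7 (22.0 to 207). Whether the Spp1-led P2ry12 lies above background thus depends on the cells taken for comparison. In the Gm43221-led and Insyn2b-led clusters P2ry12 was lower at week 5 than at week 0 (2193 to 2330 and 2444 to 2854 CPM at week 0).

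P2ry13 had much the same order. It ran from 669 and 639 CPM in the Gp9-led cluster at week 5 and 684 and 661 in the Camk2n1-led one to 63.7 and 91.9 in the Spp1-led one. The last values overlapped macrophage-like cells (187 and 85.4) and choroid plexus-like cells (49.3 CPM over both week 5 libraries, counting interval 18.1 to 107). S100a6-led and oligodendrocyte-like cells of week 5 held 0 UMIs of P2ry13 (upper limits 27.8 and 74.5 CPM). The counting intervals of the Spp1-led values were 54.3 to 74.3 and 54.4 to 145. P2ry13 was also lower at week 5 than at week 0 within the Gp9-led cluster (859 and 789 CPM at week 0) and the Camk2n1-led cluster (790 and 846). Entpd1 ran from 598 and 510 CPM in the Camk2n1-led cluster at week 5, overlapping the Insyn2b-led one (421 and 534), to 136 and 102 in the Spp1-led cluster. The last values lay inside the counting interval of choroid plexus-like cells over both week 5 libraries (73.9 CPM, interval 33.8 to 140). S100a6-led cells of week 5 were at 52.7 CPM (21.2 to 109).

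P2rx4 had another order. Its highest week 5 values were in the Ccl4-led cluster, at 318 and 500 CPM (106 and 99 UMIs from 78 and 82 cells). The shallow Gm43221-led and Insyn2b-led clusters followed (282 and 252, and 246 and 258 CPM), then the Spp1-led cluster (202 and 158) and macrophage-like cells (214 and 171). The Ddit4-led cluster (149 and 200) overlapped these last values, and the Camk2n1-led one held 137 and 151. Choroid plexus-like cells held 90.4 CPM of P2rx4 over both week 5 libraries (counting interval 45.1 to 162), and S100a6-led cells 15.1 (1.82 to 54.4). The Gp9-led cluster was at the low end of the microglia-like ones with 104.5 and 59.1 CPM, overlapping the Cxcl10-led one (140 and 92.7) and its own week 0 values (76.1 and 114). P2ry6 was highest in the Gm43221-led cluster (717 and 779 CPM at week 5, 576 and 727 at week 0). At week 5 that cluster overlapped the Insyn2b-led one (403 and 765). Among microglia-like clusters P2ry6 was lowest in the Spp1-led one (182 and 112). Choroid plexus-like cells held 107 CPM of it over both week 5 libraries (counting interval 56.9 to 183), and S100a6-led cells 45.2 (16.6 to 98.3). P2rx7 was at 51.1 and 30.6 CPM in the Spp1-led cluster, below the 90.4 CPM of choroid plexus-like cells over both week 5 libraries and so not separated from background, against 345.8 and 104 in macrophage-like cells, whose libraries differed widely. Adora3 was all but missing from macrophage-like cells, with 1 UMI at week 0 (8.66 CPM; counting interval 0.219 to 48.3) and 2 at week 5 (6.95; 0.842 to 25.1).

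**Figure D5:**
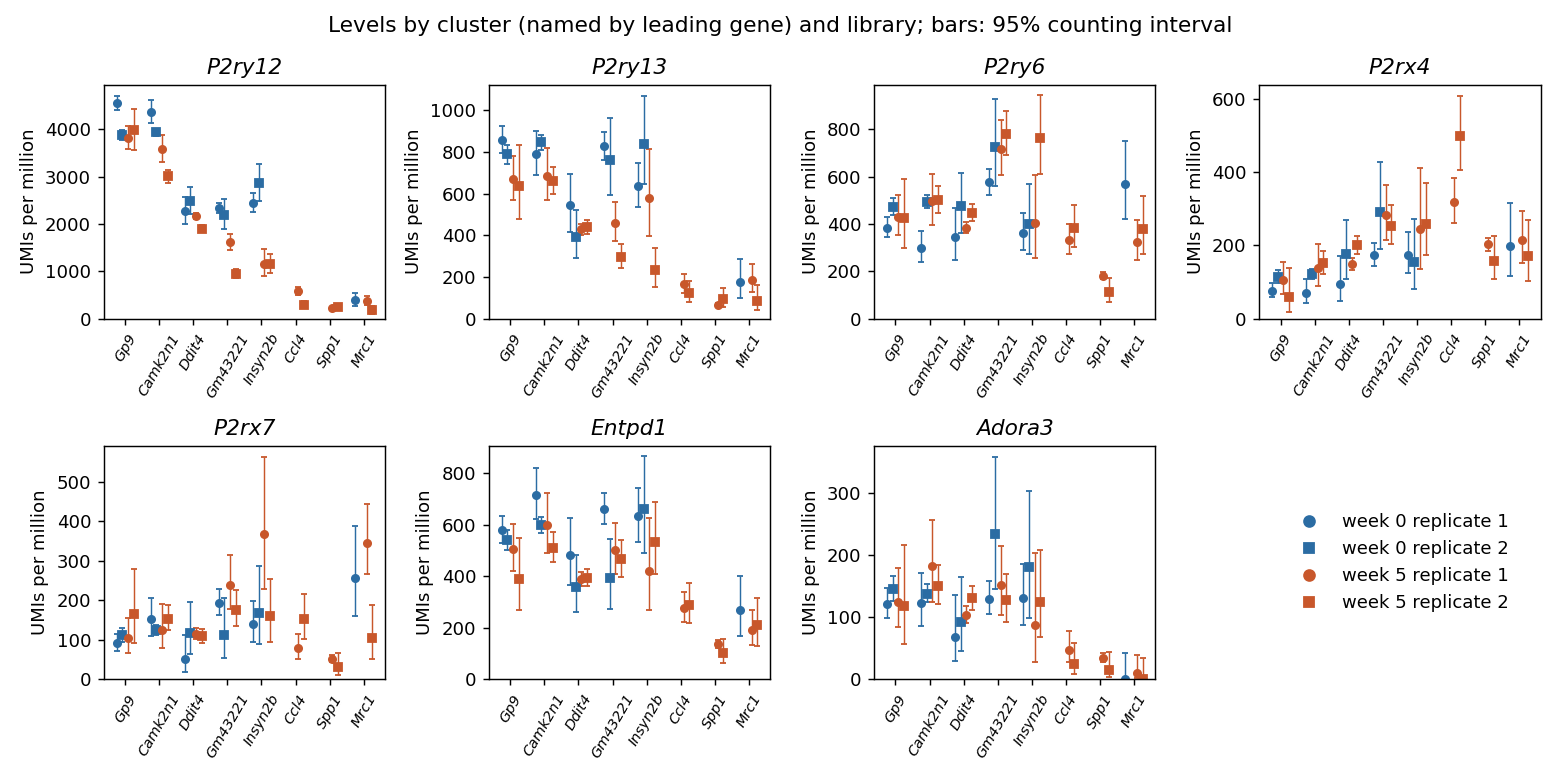
CPM of each gene on total UMIs (y axes, from 0) in 8 clusters named by their leading gene (x axes) and 4 libraries, for clusters with at least 15 cells in a library; bars are exact 95% counting intervals. P2ry12 and P2ry13 are lowest in the Ccl4-led, Spp1-led and Mrc1-led clusters, and P2rx4 is highest in the Ccl4-led cluster.

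Leaving out the Spp1-led cluster moved the log2 fold changes of P2ry12 to -0.81, of P2ry13 to -0.85, of Entpd1 to -0.49 and of P2rx4 to 0.70, with edgeR adjusted p of 0.203, 0.0646, 0.365 and 0.0743. This was chosen after the data were seen. In microglia-like cells alone the log2 fold changes were -0.99 for P2ry12, -1.001 for P2ry13, -0.56 for Entpd1 and 0.93 for P2rx4. None passed there either (edgeR adjusted p = 0.0513 for P2rx4, 0.107 for P2ry13, 0.258 for P2ry12 and 0.437 for Entpd1).

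Over the 16 sums per library and cluster with at least 50 cells, P2ry12 and P2ry13 ran in parallel (Spearman rho 0.94), and P2ry12 and P2rx4 ran opposite ways (rho -0.83). P2ry12 and P2ry6 had a rho of 0.12 and P2ry12 and P2rx7 one of 0.04. Among 3683 genes with a mean of at least 50 CPM, the profiles most like that of P2ry12 were Scoc (rho 0.97), Tmem119 (0.96) and Ecscr (0.96). Those most like P2ry13 were the transcription factor gene Sall1 (0.96), the fructose transporter gene Slc2a5 (0.96) and the selectin ligand gene Selplg (0.95). For P2ry6 they were Strada (0.94), Supt5 (0.92) and Ehmt1 (0.92), and for Entpd1 they were Gbf1 (0.95), Tmem273 (0.92) and Fam91a1 (0.91). The sums share libraries and differ in depth, so these are descriptions. Tmem119 and Sall1 were among the markers that named the clusters.

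Of 66 other genes of nucleotide and adenosine signalling, of signalling partners and of the members' surroundings in the genome, 40 were tested, 2 rose and 1 fell, where 2.33% of all genes tested rose and 0.204% fell. Their median log2 fold change was -0.09, against -0.01 over all genes tested. Among P2X receptors, P2rx1 was the 1 other gene tested (3.53 and 3.92 against 0.372 and 2.42 CPM) and did not pass. Among P2Y receptors, P2ry14, the receptor for UDP-glucose in the same chromosome 3 group, rose from 1 and 2 UMIs at week 0 to 33 and 20 at week 5. Per UMI sequenced, that is 12.54 times the week 0 value with a counting interval of 4.06 to 62.7, and 11.8 and 14.1 times for either week 5 replicate by itself (edgeR adjusted p = 0.0190). The P2ry14 call was lost when week 0 replicate 2 (adjusted p = 0.139) or week 5 replicate 1 (0.133) was left out and in DESeq2's test (0.0601), over a range from 0.000135 to 0.139. Its 53 week 5 UMIs were spread over clusters, 10 each in the Spp1-led and macrophage-like ones, and 8 each in those led by Ddit4 and Cxcl10. P2ry10b, a receptor-like gene, was at 37.7 and 46.8 CPM and then at 14.1 and 27.2 CPM and did not pass (edgeR adjusted p = 0.129).

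Med12l, which encloses P2ry12, P2ry13 and P2ry14 on the other strand, fell from 80.8 and 66.7 CPM to 29.4 and 40.5 CPM (log2 fold change -1.08, SE 0.23, edgeR adjusted p = 0.0442). Its fold change was close to those of P2ry12 and P2ry13, and the sources used here do not say how strand was used in counting, so reads of these genes cannot be told apart with certainty. Exons of Med12l share 9 of 2546 exonic bases of P2ry12 and none of P2ry13. Leaving out either week 0 library (adjusted p = 0.138 without replicate 1 and 0.0788 without replicate 2) ended the Med12l call, as did leaving out week 5 replicate 1 (0.0869). It was also lost with thinned cells (0.127) and with DESeq2's size factors (0.0542), over a range from 0.000288 to 0.138. Of the other genes beside the members, Igsf10, Camkk2, Fchsd2, Relt, Tctn3 and Aldh18a1 did not pass. Gpr171, another receptor gene inside Med12l, had 0 UMIs in every library but week 5 replicate 2, which had 9, and was not tested. Fchsd2, near P2ry6, had the most negative value of these, with a log2 fold change of -0.85 (SE 0.26, edgeR adjusted p = 0.154).

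Adora1, the 1 other adenosine receptor gene tested, had 4 and 8 UMIs at week 0 and 33 and 10 at week 5 and did not pass (edgeR adjusted p = 0.294). Nor did the surface enzyme genes Enpp1 (8.24 and 5.98 against 15.2 and 8.77 CPM) and Cd38. Of 7 inflammasome genes downstream of P2X7, 1 rose. This was Il1b, the cytokine gene, at 9.02 and 4.75 CPM and then at 32.5 and 27.2 CPM (log2 fold change 2.20, SE 0.33, edgeR adjusted p = 0.00805). Its call was lost with thinned cells (adjusted p = 0.194, the highest of its alternatives, which ran from 1.04e-10). The sensor gene Nlrp3 was at 48.3 and 53.0 CPM and then at 34.8 and 41.7, and did not pass. Of 4 tested genes of adenosine uptake and use, 0 passed, the closest being Pnp, a purine phosphorylase (261 and 347 against 189 and 213 CPM, edgeR adjusted p = 0.335). Nor did any of 6 genes of ATP release or of 10 signalling partners pass. Kcnk13, the potassium channel coupled to P2Y12 signalling, was at 62.0 and 77.8 CPM and then at 50.2 and 65.3 CPM. Pik3cg, a kinase that acts below such receptors, was at 175 and 183 and then at 127 and 123 CPM (edgeR adjusted p = 0.314). Nt5e, the enzyme that turns AMP into adenosine, had 1 and 1 UMIs at week 0 and 2 and 11 at week 5, too few to test.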

How the data were processed

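Each library came as a table of UMI counts, deposited as whole numbers for every gene and barcode. The submitters' processing notes list STAR, Cell Ranger 3.0.0, Seurat 4 and mm10 without roles, and the sources used here do not say by what filter barcodes or genes entered the tables. The most genes in a cell were 2999 and 6615 in week 0 replicates 1 and 2, and 3999 and 2996 in week 5 replicates 1 and 2. Upper limits on genes per cell may thus have differed between the tables, within and between weeks. Genes that a table did not list were taken as 0 there. Barcodes with under 500 genes or over 10% mitochondrial UMIs (272 of 4000) and 24 doublets marked by scrublet (scanpy 1.11.5; 0.644%) were left out, and 3704 cells remained. Counts were summed per library over all these cells, since microglia are usually named with some of the 7 genes. The sums were tested with edgeR 4.0.16 (R 4.3.3; quasi-likelihood test, TMM scaling, filterByExpr against low counts, Benjamini-Hochberg adjustment over all genes, threshold 0.05). The SE is the absolute log2 fold change divided by the root of the test's F. On simulated counts for this comparison (10 runs, 11003 to 11062 genes, 200 changed, log2 CPM 5 or more on average), edgeR found 50.6% of the 2-fold and 99.4% of the 4-fold changes, and 10.1% of its calls were false. Clusters (Leiden, resolution 1, 30 components, 2000 variable genes, 15 neighbours) were built and named without the 7 genes. A cluster took another class's name if that class, the one with the highest summed markers, had at least 2 markers among its 10 leading genes and more there than microglia. It was microglia-like if the microglia markers summed to at least 10 times any other class's and no other class had 2 leading markers. Microglia-like cells alone serve as an alternative only, since the Spp1-led and Gp9-led clusters have 1 leading marker of another class (Fn1 of monocytes, Gp9 of platelets) and none of microglia. Shares used exact binomial intervals after thinning each cell to 1000 UMIs. Named genes were the 7, the pathway genes that passed or lie beside a member and were detected, and the 3 most alike genes for 4 members; other pathway genes given with values were chosen after their values were seen. The members, lists and naming rules were chosen with earlier results of these data known. Promoters came from RefSeq and positions from GENCODE M21.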

Additional observations from a re-analysis of the deposited data

How the results depend on the processing

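With 2 libraries a group, simulated 2-fold changes were found in 50.6% of cases, so a missed threshold does not show that a gene did not differ. The count of called genes, 285, was 173 with each cell thinned to 1000 UMIs (8600 genes tested), 499 with a common limit of 2996 genes per cell and 925 with no filter on low counts, and ran from 151 to 1373 when 1 library was left out. P2ry12 passed in DESeq2's test, which also replaced edgeR's filter by its own (log2 fold change -1.03). P2ry13 passed in DESeq2's test (-1.04), with the common limit (-0.91), scaled by library size alone (-1.26) and with no filter (-1.06). P2rx4 passed in DESeq2's test (0.88), with the common limit (0.79) and with no filter (0.86). P2ry6 turned to 0.084 with thinned cells, 0.0092 under the common limit and 0.015 with the Spp1-led cluster left out (chosen after seeing the data), and P2rx7 to 0.14, 0.067 and 0.086. Leaving out 1 library gave -1.16 to -0.92 for P2ry12, -1.14 to -0.92 for P2ry13, 0.80 to 0.99 for P2rx4, -0.17 to 0.082 for P2ry6, -0.11 to 0.052 for P2rx7, -0.64 to -0.53 for Entpd1 and -0.43 to -0.11 for Adora3. Entpd1 and Adora3 kept their direction and did not pass in any setting run. The cause of these moves was not tested. Differences in shares (week 5 minus week 0, percentage points) moved with depth. Not thinned, they were -18.3 for P2ry12, -21.3 for P2ry13, 5.22 for P2ry6, 15.7 for P2rx4, 6.40 for P2rx7 and -7.85 for Entpd1. At 500 UMIs they were -16.5 for P2ry13, 3.83 for P2rx4 and -8.80 for Entpd1, and at 2000 UMIs -23.5 for P2ry12, -33.9 for P2ry13, -8.87 for P2ry6, 6.50 for P2rx4 and -19.6 for Entpd1. In microglia-like cells P2rx4 differed by 6.24, and with no cell filter P2rx4 by 6.78 and P2rx7 by 1.87. Replicate numbers are shared between the weeks but nothing says that they pair libraries (correlation of same-numbered deviations -0.03); with the replicate block 369 genes were called and 0 of the 7, with P2ry12 at -1.04.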
